A study of Homo sapiens with 12 samples.

Results

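Cancer-testis antigen genes were read out in FaDu and Cal27 cells and in the EGFR inhibitor-resistant models made from them. They were taken as the protein-coding genes whose symbols belong to the families MAGEA, MAGEB, MAGEC, GAGE, PAGE, XAGE, SSX, CTAG and CT45A, which gave 71 of the 58051 genes counted. Of these, 70 lie on the X chromosome. The remaining gene, SSX2IP on chromosome 1, fits the naming pattern by its letters alone: it encodes a partner protein of SSX2 and is not itself a cancer-testis antigen gene, so its values are given apart.

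FaDu is a cell line from a squamous cell carcinoma of the hypopharynx, and Cal27 a line from a squamous cell carcinoma of the tongue. The 6 groups were FaDu parental, FaDu AfaR, FaDu ErlR, Cal27 parental, Cal27 AfaR and Cal27 ErlR, with 2 RNA-seq libraries per group. AfaR cells had been taken through rising doses of afatinib, an irreversible inhibitor of EGFR and other ERBB kinases, and ErlR cells through rising doses of erlotinib, a reversible EGFR inhibitor. The labels list all 12 samples as wild type. Each resistant model was a single population selected from its line, so an effect of the drug and the history of that population cannot be told apart, and drug was withdrawn for a day before cells were used in experiments.

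Cancer-testis antigen genes are active in the germ cells of the testis and silent in most adult tissues. Methylation of CpG dinucleotides at their promoters keeps many of them silent, and they can be switched on in tumors that lose this methylation. MAGE-A proteins share a MAGE homology domain, bind E3 ubiquitin ligases of the TRIM family, and yield peptides that T cells recognize on tumor cells, which has made MAGEA3 and MAGEA4 targets of vaccines and engineered T cells. Several of the families, GAGE and CT45A among them, hold near-identical gene copies.

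The promoters of the genes on which the results turn are shown first. Whether promoter sequence takes part in the levels of these genes was not tested. Each window runs from 250 bases before to 50 bases after an annotated transcript start (RefSeq, GRCh38.p14; 57 of the 71 genes had such a window). Capitals mark CpG dinucleotides. MAGEA3 at chrX:152698544-152698843 on the plus strand is followed by MAGEA4 at chrX:151912224-151912523 on the plus strand, for which the first of 5 listed starts is shown, and by MAGEA12 at chrX:152733507-152733806 on the plus strand, for which the first of 2 is shown.
MAGEA3: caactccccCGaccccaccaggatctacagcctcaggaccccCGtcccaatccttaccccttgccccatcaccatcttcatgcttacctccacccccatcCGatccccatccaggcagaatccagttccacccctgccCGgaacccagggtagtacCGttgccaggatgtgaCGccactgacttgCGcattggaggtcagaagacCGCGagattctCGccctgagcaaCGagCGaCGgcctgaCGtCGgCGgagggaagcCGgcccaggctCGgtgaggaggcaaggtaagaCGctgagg
MAGEA4: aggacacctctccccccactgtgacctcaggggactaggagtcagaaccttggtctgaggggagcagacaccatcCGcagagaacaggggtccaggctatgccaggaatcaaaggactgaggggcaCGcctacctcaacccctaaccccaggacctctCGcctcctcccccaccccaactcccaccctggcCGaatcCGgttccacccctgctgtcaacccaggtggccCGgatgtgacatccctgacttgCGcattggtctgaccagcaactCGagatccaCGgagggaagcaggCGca
MAGEA12: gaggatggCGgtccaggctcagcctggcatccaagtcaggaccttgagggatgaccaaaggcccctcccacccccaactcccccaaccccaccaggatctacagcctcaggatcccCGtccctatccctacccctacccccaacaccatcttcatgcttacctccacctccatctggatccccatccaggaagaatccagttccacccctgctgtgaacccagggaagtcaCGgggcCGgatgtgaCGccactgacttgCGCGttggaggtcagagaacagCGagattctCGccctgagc
The window of MAGEA6, at chrX:152769640-152769939 on the minus strand, was identical to that of MAGEA3 at all 300 bases. The MAGEA3 window held 19 CpG dinucleotides, that of MAGEA4 held 10 and that of MAGEA12 held 9, against a median of 12 over the 57 windows of these families and 14 over all 35116 windows in the table. The windows are set by annotated starts and do not cover the same stretch of related promoters. That of MAGEA12 ends at bases after which the MAGEA3 window runs on with further CpG dinucleotides, so their counts are not like for like. At least 1 CpG was present in 100% of the family windows and 96.0% of all windows. Without gaps counted, MAGEA3 and MAGEA12 were identical at 90.2% of the aligned bases of these windows (203 identical, 22 mismatched). For MAGEA3 and MAGEA4 this was 68.1% (145 identical, 68 mismatched). The rest of each 300-base window was not aligned to the other. The longest run common to MAGEA3 and MAGEA4 was 16 bases.
Shared run: ctgacttgcgcattgg
It starts 73 bases before the start of MAGEA3 and 7 bases before that of MAGEA4, and was found, on either strand, in 0.0342% of all windows: in those of MAGEA2, MAGEA2B, MAGEA3, MAGEA4 and MAGEA6, of the neighboring gene CSAG3, and of the transcripts MAGEA3-DT and MAGEA6-DT.

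Reads were counted on genes at 16334937 to 23399259 per library, with a median of 16584450. Levels are given as CPM, which scales counts to the library size, after TMM normalization over the 12 libraries. At this depth, 3 counts in a library, taken as the limit that a count of 0 allows, correspond to 0.123 to 0.196 CPM. That limit covers counting error only. Squamous epithelial markers were present in every group, with all 10 genes counted, and summed to between 6643 and 13500 CPM in FaDu libraries and between 1081 and 5359 CPM in Cal27 libraries. Cal27 AfaR had the lowest sums, 1081 and 1188 CPM, and 8 of the 10 markers were called lower there than in parental cells. Of 12 germ cell markers, 9 to 11 per group were at 0, and the sum did not exceed 0.701 CPM in any library. Leukocyte and endothelial markers summed to between 13.2 and 50.4 CPM, mostly from the cadherin gene CDH5 in Cal27 parental (30.5 ± 0.32 CPM) and AfaR cells (32.1 ± 5.16 CPM).

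Nearly all cancer-testis antigen transcripts in these cells came from 3 genes. MAGEA3, MAGEA4 and MAGEA6 held 78765 of the 78806 reads counted on the 70 X-linked genes, or 99.9%. No read in any of the 12 libraries fell on 50 of the 71 genes. Another 17 had at least 1 read but never more than 6 in a library. All CT45A genes and all CTAG genes, which encode NY-ESO-1 and its relatives, were at 0. So were 12 of 13 GAGE, 7 of 9 SSX, 5 of 6 PAGE, 6 of 11 MAGEB, 3 of 12 MAGEA, 3 of 5 XAGE and 2 of 3 MAGEC genes. Over the 12 libraries together, a count of 0 allows a mean level of up to 0.0138 CPM.

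With a mean of at least 1 CPM taken as expressed, MAGEA4 was the X-linked gene of these families expressed in each of the 3 FaDu groups, and MAGEA3, MAGEA4 and MAGEA6 were expressed in each of the 3 Cal27 groups. Counting SSX2IP, 2 of 71 genes (2.82%) were expressed in each FaDu group and 4 of 71 (5.63%) in each Cal27 group. Of the 19629 protein-coding genes, between 58.3% and 62.1% were expressed by the same rule. By this rule the number of these genes expressed was the same in resistant and parental cells of a line. In FaDu ErlR, however, MAGEA3 (0.971 CPM) and MAGEA6 (0.938 CPM) lay just under the limit. With a mean of at least 0.5 CPM, FaDu ErlR had 4 genes expressed, against 2 in FaDu parental and 2 in FaDu AfaR cells.

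A count of 0 says less for copies that cannot be told apart. Of 70 members with a transcript of at least 150 bases, the read length, 10 had no 150-base window that occurs in no other gene of GENCODE 44, and 28 had under 50% of such windows unique. CTAG1B had 0% of its windows unique, CTAG1A 0.99%, CT45A1 24.6%, MAGEA2 11.9% and MAGEA2B 22.1%. Reads on their shared windows would be lost if reads with several placements were left out, a setting not given in the sources used here. The windows stand for single reads, whereas the libraries were sequenced as pairs. For 36 members, at least 90% of windows were unique. They include MAGEA1 and MAGEA11 (100%), CTAG2 (90.2%) and GAGE1 (90.3%). These 4 had 1, 2, 0 and 0 reads over the 12 libraries, so their near absence does not rest on shared sequence.

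**Figure D1:**
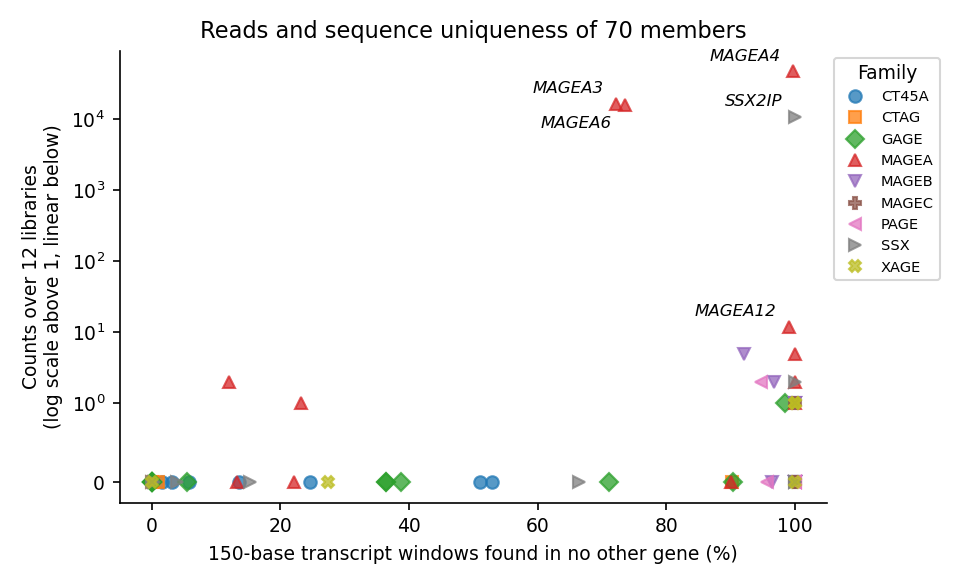
Reads on 70 of the 71 genes, summed over the 12 libraries (vertical axis, log scale above 1 and linear below), against the percent of 150-base transcript windows found in no other gene (horizontal axis); each symbol is a gene and each shape a family. MAGEA4 and SSX2IP lie at the upper right, MAGEA3 and MAGEA6 share part of their windows (72.2% and 73.5% unique), and the other genes lie at 12 reads or fewer at every degree of uniqueness.

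MAGEA12 is a close relative of MAGEA3 and MAGEA6 that stands between them, 35027 bases from the MAGEA3 gene start. Its transcript windows were 99.1% unique, so its reads can be told from theirs. It had 0 reads in each of the 6 FaDu libraries. In Cal27 it had 2 and 1 reads in the parental libraries, 1 and 2 in AfaR and 6 and 0 in ErlR. MAGEA3 and MAGEA6 had 1952 or more reads each in these same Cal27 libraries. The next genes by highest group mean, MAGEA11, MAGEA8, MAGEB17, PAGE2B and MAGEB6, had between 0 and 2 reads in every library.

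MAGEA4 was the cancer-testis antigen gene with substantial levels in both lines. It lies at chrX:151912509-151925170 on the plus strand. Its level in the FaDu line was 205 and 199 CPM in parental libraries, 186 and 171 CPM in AfaR libraries, and 207 and 245 CPM in ErlR libraries. In Cal27 it was 185 and 186 CPM in parental cells, 222 and 230 CPM in AfaR, and 289 and 291 CPM in ErlR. Both Cal27 resistant models lay above both Cal27 parental libraries, whereas in FaDu the AfaR libraries lay below and the ErlR libraries above the parental ones. Per kilobase of annotated length, the group means ran from 57.8 to 94.1 CPM, above between 96.2% and 97.7% of protein-coding genes in each group. Its antisense neighbor MAGEA4-AS1, which overlaps it by 1460 bases on the other strand, had 6 to 46 reads per library against 3186 or more on MAGEA4; whether the counting used strand is not given in the sources used here.

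MAGEA3, at chrX:152698752-152702347 on the plus strand, was high in Cal27 alone. It had 126 and 121 CPM in Cal27 parental, 121 and 137 CPM in Cal27 AfaR, and 233 and 241 CPM in Cal27 ErlR. The parental and AfaR libraries overlapped, and both ErlR libraries lay above them. In FaDu it had 0 and 2 reads in the parental libraries, 3 and 1 in AfaR, and 13 and 17 in ErlR, the last being 0.831 and 1.11 CPM. The ratio of Cal27 parental to FaDu parental was 2462, with an exact 95% counting interval from 681 to 20338 that covers counting error only.

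MAGEA6, at chrX:152766136-152769747 on the minus strand, lies 67384 bases from MAGEA3 in the opposite orientation and followed the same order. It had 115 and 116 CPM in Cal27 parental, 105 and 135 CPM in Cal27 AfaR, and 218 and 232 CPM in Cal27 ErlR. In FaDu it had 4 and 1 reads in the parental libraries, 2 and 4 in AfaR, and 13 and 16 in ErlR, the last being 0.831 and 1.05 CPM. Its Cal27 parental to FaDu parental ratio was 920 (394 to 2836). The longest MAGEA3 and MAGEA6 transcripts differed at 25 of 1762 bases, so part of the reads of each could have been counted on the other, and the genes are not independent measurements.

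Per kilobase of annotated length, the 3 genes stood at similar levels in Cal27 parental cells: 69.1 ± 2.11 CPM for MAGEA3, 61.9 ± 0.27 for MAGEA6 and 60.3 ± 0.23 for MAGEA4 (mean ± SD, n = 2). The annotated lengths were 1788, 1863 and 3081 bases, and the longest transcripts 1762, 1762 and 1982 bases. By the longest transcript MAGEA4 would stand higher beside MAGEA3 and MAGEA6, so the similarity and the order of the genes rest on the length used. In Cal27 ErlR they stood at 132 ± 3.09, 121 ± 5.49 and 94.1 ± 0.32 CPM per kilobase. MAGEA3 and MAGEA6 were then above 98.5% and 98.3% of protein-coding genes.

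**Figure D2:**
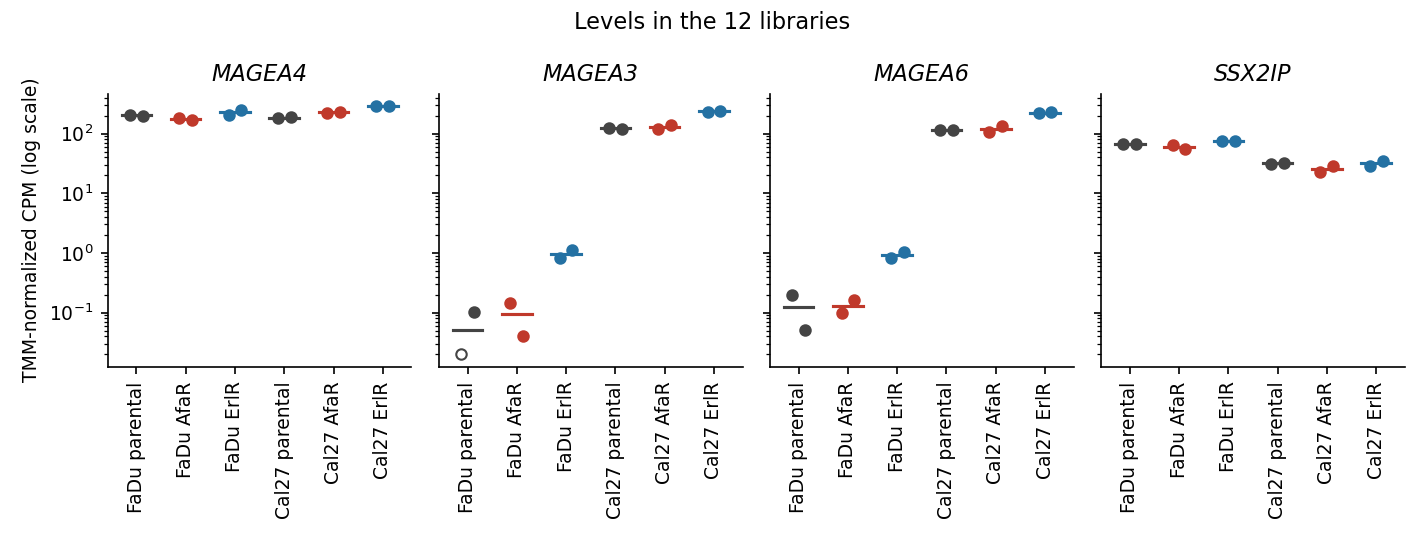
TMM-normalized CPM on a log scale (vertical axis) of MAGEA4, MAGEA3, MAGEA6 and SSX2IP in the 6 groups (horizontal axis); each point is a library, each bar the mean of 2, and the open point is a library with 0 reads, drawn near the bottom of the axis. MAGEA4 lies between 171 and 291 CPM in all 12 libraries, while MAGEA3 and MAGEA6 are above 100 CPM in every Cal27 library and near or below 1 CPM in every FaDu library.

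Each resistant group was then compared with the parental group of its line by edgeR's quasi-likelihood test, with p-values adjusted over all genes tested (Benjamini-Hochberg). A gene was said to pass the test at an adjusted p below 0.05 and to be called when its log2 fold change also exceeded 1 in size. Only MAGEA3, MAGEA4, MAGEA6 and SSX2IP had enough reads to be tested in any fit, and in FaDu MAGEA3 and MAGEA6 passed the filter on low counts only through the ErlR libraries. The AfaR and ErlR comparisons of a line share its parental libraries. The labels and the study's methods give the 2 libraries of a group as biological replicates.

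In FaDu AfaR cells, 0 of the 4 tested genes were called and 0 passed the test, against 7.43% of all 15092 genes called and 17.9% past the test. At an unadjusted p below 0.05 edgeR also gave 0 of 4, and DESeq2, an alternative test, gave 0 of the 2 for which it set an adjusted p. MAGEA4 was 178 ± 10.6 CPM against 202 ± 4.33 CPM in parental cells, a fold of 0.87 with a 95% interval from 0.73 to 1.04 (log2 fold change -0.20 ± 0.11 SE, adjusted p = 0.245). The summed reads of MAGEA3 were 4 against 2, a ratio of 1.77 with a counting interval from 0.254 to 19.6, and those of MAGEA6 were 6 against 5, a ratio of 1.06 (0.271 to 4.41). No difference was detectable at this depth.

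In FaDu ErlR cells, MAGEA3 was called higher. It was the 1 gene called of the 4 tested, where 2.05% of all genes were called and 4.18% passed the test, but MAGEA3 and MAGEA6 were tested only because of their reads in ErlR, so nothing is read from this share. The reads behind the call were few: 30 over the FaDu ErlR libraries against 2 over the parental ones, a ratio of 19.3 with an exact 95% counting interval from 4.90 to 167. The adjusted p was 0.0443. MAGEA6 had 29 reads against 5, a ratio of 7.47 (2.86 to 24.7), with an adjusted p of 0.0584. In both genes each ErlR library lay above each parental and each AfaR library. MAGEA4 was 226 ± 26.6 CPM against 202 ± 4.33 CPM (fold 1.11, 0.93 to 1.33, adjusted p = 0.493).

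The MAGEA3 call in FaDu ErlR did not survive the omission of any of the 6 FaDu libraries. The adjusted p was 0.278 without parental replicate 1, 0.142 without parental replicate 2, 0.0632 and 0.0599 without AfaR replicate 1 or 2, and 0.107 and 0.213 without ErlR replicate 1 or 2, while the log2 fold change stayed positive (3.13 to 7.24). When MAGEA3 and MAGEA6 reads were summed before the fit, a choice made after the data were seen, the pair was 10.4-fold higher in FaDu ErlR (4.50 to 24.2, adjusted p = 0.0166).

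Even so, the level reached in FaDu ErlR was low. MAGEA3 at 0.971 ± 0.20 CPM and MAGEA6 at 0.938 ± 0.15 CPM stood at 0.595% and 0.611% of their mean over the 6 Cal27 libraries. Of 13 genes with at least 10 CPM in every Cal27 library and at most 0.3 CPM on average in FaDu parental cells, the other 11 stood in FaDu ErlR at 0.931% to 12.3% of their Cal27 mean, with a median of 1.45%. Their FaDu parental levels were 0.0928% to 1.88% of the Cal27 mean, and those of MAGEA3 and MAGEA6 were 0.0318% and 0.0801%. The limits that picked the genes also cap these parental percentages. The cap is tighter at a higher Cal27 mean (163 CPM for MAGEA3 and 154 CPM for MAGEA6), so the parental percentages are not compared. Whether reads passed between libraries took part in these values was not tested.

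In Cal27 AfaR cells, 0 of the 4 genes were called and 0 passed the test, although 19.6% of all 15269 genes were called and 37.6% passed the test there. At an unadjusted p below 0.05 edgeR gave 1 of 4, MAGEA4, and DESeq2 called 0. MAGEA3 was 129 ± 10.8 CPM against 123 ± 3.78 CPM, a fold of 1.05 (0.86 to 1.27, adjusted p = 0.707). MAGEA6 was 120 ± 21.0 CPM against 115 ± 0.50 CPM, a fold of 1.04 (0.83 to 1.30, adjusted p = 0.772). For both, the direction turned when Cal27 AfaR replicate 2 was left out. MAGEA4 was 226 ± 5.83 CPM against 186 ± 0.69 CPM, a fold of 1.22 (1.01 to 1.46, adjusted p = 0.0863). These intervals do not exclude a rise of 1.27-fold for MAGEA3 or 1.46-fold for MAGEA4.

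In Cal27 ErlR cells, MAGEA3, MAGEA6 and MAGEA4 all rose. MAGEA3 was 237 ± 5.53 CPM against 123 ± 3.78 CPM in parental cells, 1.88-fold higher (1.55 to 2.28, log2 fold change 0.91 ± 0.12 SE, adjusted p = 0.00107). MAGEA6 was 225 ± 10.2 CPM against 115 ± 0.50 CPM, 1.92-fold higher (1.53 to 2.40, adjusted p = 0.00186). MAGEA4 was 290 ± 0.99 CPM against 186 ± 0.69 CPM, 1.53-fold higher (1.28 to 1.84, adjusted p = 0.00516). Each of the 3 was under the limit of 1 on the log2 scale, so 0 of 4 genes were called by edgeR or DESeq2, against 13.5% of all genes by edgeR. By the test alone 3 of 4 passed, against 27.6% of all genes.

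**Figure D3:**
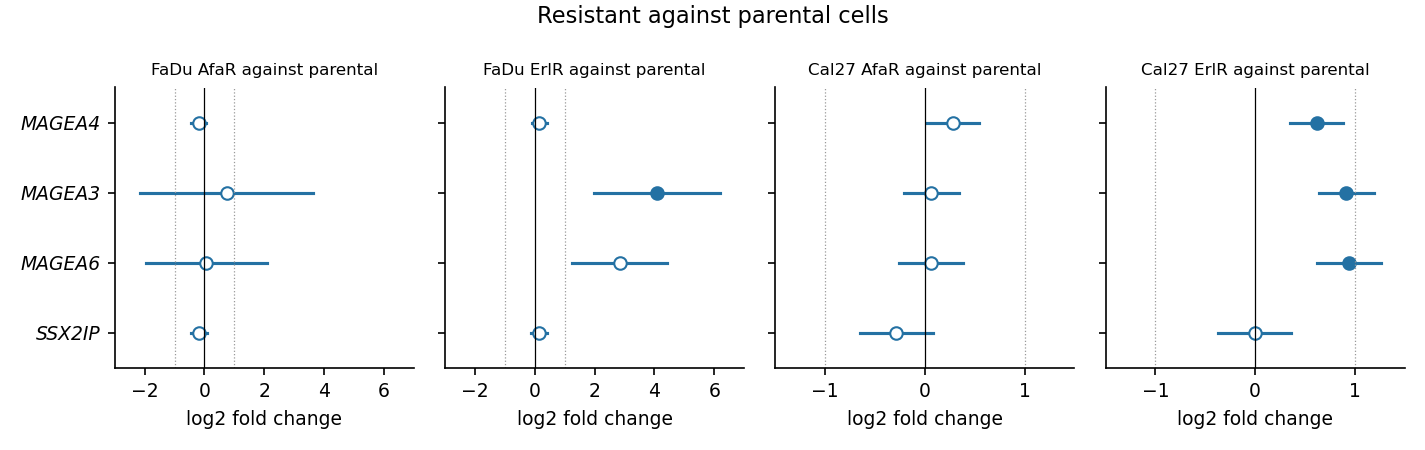
Log2 fold changes of resistant against parental cells (horizontal axis, wider range in the FaDu panels) for MAGEA4, MAGEA3, MAGEA6 and SSX2IP in the 4 comparisons, with 95% intervals from edgeR as lines. Filled points passed the test at an adjusted p below 0.05 and dotted lines mark a log2 fold change of 1; filled points are MAGEA3 in FaDu ErlR and MAGEA4, MAGEA3 and MAGEA6 in Cal27 ErlR.

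X-linked genes as a whole were shifted upward in Cal27 ErlR. Over 476 X-linked genes tested, the median log2 fold change was 0.31, against -0.03 over all genes, and 131 passed the test upward and 41 downward, where 12.3% of all genes passed upward and 15.3% downward. Such an excess was not confined to Cal27 ErlR: 122 X-linked genes passed upward and 46 downward in Cal27 AfaR (median 0.16; all genes 19.5% and 18.2%), and 67 and 20 of 481 in FaDu AfaR (median 0.04; all genes 10.4% and 7.49%). In FaDu ErlR 11 of 481 passed upward and 3 downward (median 0.08), where 2.58% of all genes passed upward and 1.60% downward. The upward share of X-linked genes there did not exceed that of all genes. Markers of other kinds were also followed in Cal27 ErlR, where 13.5% of all genes were called. Of 10 squamous markers, 4 passed the test downward, 3 of them called, and 2 passed it upward. The median log2 fold change of these 10 was 0.07, and they summed to 5255 and 5359 CPM against 4182 and 5324 CPM in parental cells. The summed leukocyte and endothelial markers were 15.4 and 18.4 CPM against 44.2 and 50.4 CPM in parental cells. Of 5 tested, 2 were called lower, CDH5 and CD68. The part of these markers in the MAGE-A values was not tested. Within 2 Mb of MAGEA3, a window chosen after the data were seen, 49 other genes were tested with a median of 0.41 (quartiles -0.10 and 0.78), and 21 passed the test upward and 4 downward. The filamin gene FLNA (1.40), the kinase gene IRAK1 (1.33), ZNF185 (1.12) and CETN2 (0.86) were among those higher on the log2 scale, and DUSP9 (-2.92) was among those lower. MAGEA3 was exceeded by 9 of the 49 neighbors and MAGEA4 by 15. The part that the region takes in the rise of the MAGE-A genes was not tested. The same window had medians of 0.21 in Cal27 AfaR, 0.03 in FaDu ErlR and 0.01 in FaDu AfaR, and in FaDu ErlR no neighbor exceeded MAGEA3.

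**Figure D4:**
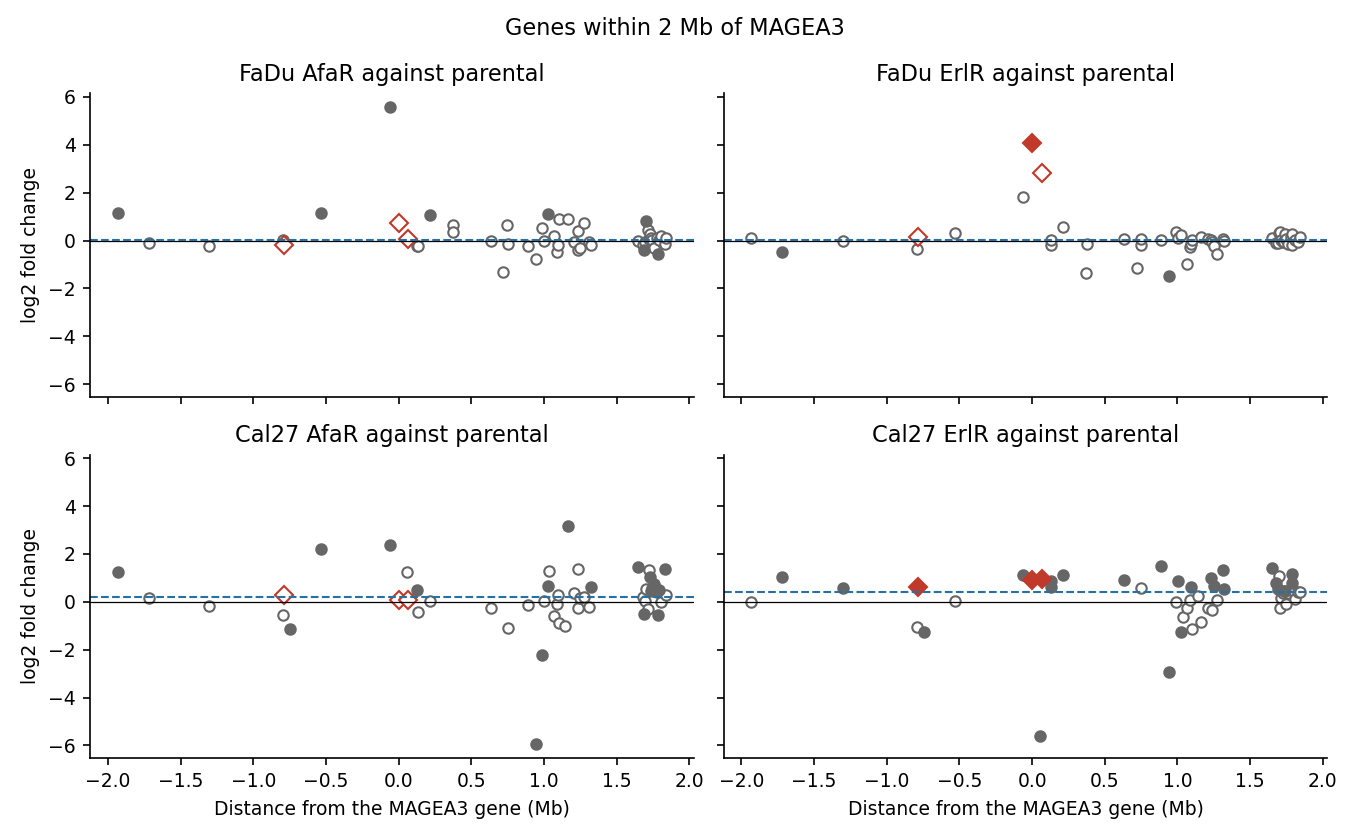
Log2 fold changes (vertical axis) of the genes tested within 2 Mb of MAGEA3 against their distance from it in Mb (horizontal axis), in the 4 comparisons; grey circles are other genes, red diamonds are MAGEA4, MAGEA3 and MAGEA6, filled symbols passed the test and the dashed line is the median of the other genes. The dashed line stands at 0.41 in Cal27 ErlR, where all 3 diamonds lie above it, and at 0.01 to 0.21 in the other panels.

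The resistant models of a line were also compared with each other. In FaDu, MAGEA3 and MAGEA6 were called lower in AfaR than in ErlR, 2 of 4 genes. Of all genes, 5.94% were called and 15.7% passed the test, but both MAGE-A genes were tested only because of their reads in ErlR, so the share is not compared. Their adjusted p-values were 0.0279 and 0.0282, with 4 reads against 30 for MAGEA3 and 6 against 29 for MAGEA6. The calls of both were lost without AfaR replicate 1, AfaR replicate 2, ErlR replicate 1 or ErlR replicate 2, and that of MAGEA6 also without parental replicate 1. In Cal27, 0 of 4 genes were called between AfaR and ErlR and 3 passed the test, against 27.1% and 49.6% of all genes. MAGEA3 stood in AfaR at 0.56 of its ErlR level (0.46 to 0.67, adjusted p = 0.000498), MAGEA6 at 0.54 (0.43 to 0.68, adjusted p = 0.000939) and MAGEA4 at 0.79 (0.66 to 0.95, adjusted p = 0.0397). MAGEA4 no longer passed without any single library of the 6, with adjusted p-values from 0.0698 to 0.130. Without Cal27 AfaR replicate 2, MAGEA6 was called.

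Whether the effect of resistance differed between the lines was tested as an interaction over all 12 libraries. For erlotinib resistance, 2 of 4 genes were called, MAGEA3 and MAGEA6, and MAGEA4 passed the test without being called. Of all 16240 genes, 10.9% were called and 18.6% passed the test, but the share is not compared. MAGEA3 and MAGEA6 passed the filter on low counts only through the Cal27 and FaDu ErlR libraries and are not independent measurements. The FaDu effect exceeded the Cal27 effect by 3.16 ± 0.66 on the log2 scale for MAGEA3 (adjusted p = 0.0067) and by 1.87 ± 0.52 for MAGEA6 (adjusted p = 0.0267), values that rest on the few reads in FaDu. For MAGEA4 it was smaller than the Cal27 effect, with a difference of -0.48 ± 0.15 (adjusted p = 0.0468). For afatinib resistance 0 of 4 genes were called or passed the test (1 of 4 at an unadjusted p below 0.05, and 1 past the test in DESeq2), against 12.3% and 18.6% of all genes, and MAGEA4 differed by -0.46 ± 0.15 (adjusted p = 0.0529).

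SSX2IP, at chr1:84643707-84690803, has other biology behind its name. It had 67.6 and 66.5 CPM in FaDu parental, 65.3 and 54.3 in AfaR and 74.4 and 74.8 in ErlR, and between 23.1 and 34.8 CPM in the Cal27 libraries. None of the 4 comparisons with parental cells put it past the test, the folds being 0.82 to 1.10 and the lowest adjusted p 0.193.

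A list of 33 DNA methylation and chromatin genes was followed. Beside silencing genes it holds TET1, TET2, TET3 and TDG, which act in the removal of DNA methylation. A count of higher or lower genes therefore gives no direction of silencing. Of the 33, 31 were tested in each fit. None was called against parental cells by edgeR or DESeq2, between 8 and 14 had an unadjusted p below 0.05, and those past the test were 6 lower and 0 higher in FaDu AfaR, 3 lower and 0 higher in FaDu ErlR, 8 lower and 3 higher in Cal27 AfaR, and 2 lower and 4 higher in Cal27 ErlR. Over all genes, 17.9%, 4.18%, 37.6% and 27.6% passed the test in this order. The list's median log2 fold changes were -0.25, -0.06, -0.10 and 0.22 in this order, against medians between -0.03 and 0.00 over all genes. DNMT1, the maintenance DNA methyltransferase, was singled out after its values were seen. It fell to 0.70 of the parental level in FaDu AfaR (227 ± 12.9 against 318 ± 6.49 CPM, adjusted p = 0.0128) and to 0.54 in Cal27 AfaR (153 ± 18.2 against 284 ± 20.9 CPM, adjusted p = 0.000934). In the ErlR models it was 305 ± 0.59 CPM in FaDu (adjusted p = 0.720) and 324 ± 8.32 CPM in Cal27 (adjusted p = 0.389).

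Of 11 partner genes of MAGE proteins, among them ubiquitin ligases and the deubiquitinase gene USP7, all were tested and none was called against parental cells. In FaDu AfaR 2 passed the test, both higher, where 17.9% of all genes did. In Cal27 AfaR 3 did, 1 higher and 2 lower, where 37.6% of all genes did. In both ErlR models the number was 0, with 1 in FaDu and 4 in Cal27 at an unadjusted p below 0.05, and DESeq2 put 0 and 1 past the test.

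The MAGE genes of other subfamilies, most of which are broadly expressed, were followed as a list of 11, of which 5 were tested. In Cal27 AfaR all 5 were called, 4 higher and 1 lower, where 19.6% of all genes were called. MAGEE1 rose from 1.22 ± 0.50 to 6.02 ± 1.41 CPM (log2 fold change 2.29, adjusted p = 0.0052), NSMCE3, a subunit of the SMC5/6 complex, by 1.22 (adjusted p = 0.000563) and MAGED2 by 1.22 (adjusted p = 0.000534). MAGED1 fell in both Cal27 models, from 18.99 ± 2.66 CPM to 1.79 ± 0.17 in AfaR (adjusted p = 1.8e-05) and 1.53 ± 0.09 in ErlR (adjusted p = 6.0e-05), where it was the 1 gene called. In FaDu AfaR 3 of 5 passed the test, all higher, where 17.9% of all genes passed and 7.43% were called. The 1 called was MAGEH1, at 4.85 ± 0.41 against 1.57 ± 0.60 CPM (adjusted p = 0.0198). In FaDu ErlR 0 of 5 passed in edgeR or DESeq2, and 3 of 5 had an unadjusted p below 0.05.

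Cancer-testis genes outside these families were few as well. Of 44 listed, 43 were in the files, and 6 were tested in FaDu and 8 in Cal27. Of all genes, 7.43% were called in FaDu AfaR and 2.05% in FaDu ErlR. In FaDu the 1 gene called was TSPYL5, a testis-specific Y-encoded-like gene not located on the Y chromosome, in both models: 18.7 ± 2.03 CPM in AfaR and 18.3 ± 0.81 in ErlR against 4.77 ± 2.07 in parental cells (adjusted p = 0.00373 and 0.0107). In Cal27 AfaR 3 of the 8 were called higher and 1 lower, where 19.6% of all genes were called. LIN28A and TEX15 had too few reads in parental cells to pass the filter on low counts there, so nothing is read from this share. PRAME went from 1.28 ± 0.17 to 2.95 ± 0.66 CPM (adjusted p = 0.0392) and the meiosis gene HORMAD1 from 4.54 ± 1.07 to 2.05 ± 0.84 CPM (adjusted p = 0.0342). The RNA-binding protein gene LIN28A had 54 reads against 2, a ratio of 25.9 with a counting interval from 6.83 to 219, and TEX15 had 38 against 4, a ratio of 9.12 (3.28 to 35.2).

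In Cal27 ErlR 2 of the 8 tested were called higher and 1 lower, where 13.5% of all genes were called. BRDT was tested only because of its reads in ErlR, so nothing is read from this share. BRDT, a bromodomain protein gene of the testis, had 22 and 17 reads in the ErlR libraries and 0 in each of the other 10 libraries. With 3 counts over the group taken as the limit of its 0 in parental cells, it was 13.9-fold higher in ErlR. That value leaves out the counting error of the ErlR reads. The zinc finger gene ZNF165 rose from 2.56 ± 0.0028 to 6.69 ± 1.33 CPM (adjusted p = 0.0098). CSAG3, which lies between MAGEA3 and MAGEA6, was at 0 in both ErlR libraries against 8 and 4 reads in parental cells. It was 3.73-fold lower by the same limit, which leaves out the counting error of the parental reads. MAGEA3 and MAGEA6 passed the test upward in the same libraries.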

How the data were processed

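RNA was poly(A)-selected with ERCC spike-ins and sequenced as 150-base pairs. By the processing notes, the authors used Trimmomatic 0.36, STAR 2.5.2b on GRCh38 and featureCounts of Subread 1.5.2, and deposited raw counts of reads per gene, which were used here. Whether reads with several placements or strand were counted is not given in the sources used here. The tables of normalized counts for each comparison were not used.

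Symbols were taken from GENCODE 44 by Ensembl ID (56948 of 58051 matched). The 92 ERCC sequences were left out of library sizes and took 3.86% to 5.82% of counts. The tests were quasi-likelihood tests of edgeR 4.0.16 (R 4.3.3; TMM, filterByExpr, glmQLFit, glmQLFTest), in 1 fit per line over 6 libraries with 3 residual degrees of freedom. Interactions used 1 fit over 12. DESeq2 1.42.0 was an alternative. Scripts were tested on simulated data. Replicates differed by more than sampling noise. At this depth (16334937 to 23399259 counts per library) 3 counts in a library correspond to 0.123 to 0.196 CPM. The genes, lists and tests were chosen with earlier results of these data known. Named are genes called in any comparison with parental cells, genes that reach a group mean of 1 CPM, per-library values for the 10 highest, and up to 3 called genes per direction of each list.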

Additional observations from a re-analysis of the deposited data

Results flagged for a closer look

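The effect of erlotinib resistance differed between FaDu and Cal27 for 3 of the 4 genes tested, by an interaction term in edgeR. Of all 16240 genes, 18.6% passed that test and 10.9% were called, but the share is not compared. MAGEA3 and MAGEA6 passed the filter on low counts only through groups where they are high and are not independent measurements. The FaDu effect minus the Cal27 effect was 3.16 on the log2 scale for MAGEA3, 1.87 for MAGEA6 and -0.48 for MAGEA4. For MAGEA3 and MAGEA6 the FaDu side rests on 59 reads over both genes in the 2 ErlR libraries and 7 in the 2 parental libraries. Without single libraries the difference ran from 2.21 to 6.22 for MAGEA3, which lost its place past the test without FaDu parental replicate 1 (adjusted p = 0.057), and from 1.27 to 3.05 for MAGEA6, which lost it in 4 of 12 fits. For MAGEA4 it ran from -0.60 to -0.36, and the test was no longer passed in 11 of 12 fits. Groups of 2 libraries are too small to look for outlying libraries.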

How the results depend on the processing

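In Cal27 ErlR, the rises of MAGEA3, MAGEA6 and MAGEA4 passed the test under every alternative that kept them separate, leaving out each library included. No alternative gave a called gene in FaDu AfaR or Cal27 AfaR. In FaDu ErlR the 1 called gene became 0 under DESeq2, where MAGEA3 and MAGEA6 had no adjusted p, 0 with counts summed per subfamily, 0 when each library was left out in turn, and 2 with ERCC totals as library sizes or with no filter on low counts. ERCC scaling moved the median log2 fold change of all genes by 0.49 in FaDu ErlR and 0.18 in FaDu AfaR, and on that scale MAGEA4 stood at 0.63 (adjusted p = 0.0048) in FaDu ErlR. With no fold limit Cal27 ErlR had 3 called genes in place of 0. Between FaDu AfaR and ErlR the 2 called genes became 0 under DESeq2, where MAGEA3 and MAGEA6 again had no adjusted p and could not be called. They became 1 with MAGEA3 and MAGEA6 summed and 0 to 2 with a library left out. Cal27 AfaR against ErlR had 0 to 1, and the ErlR interaction 1 to 2. With a library left out, MAGEA3 ran from -0.0059 to 0.15 and MAGEA6 from -0.11 to 0.23 in Cal27 AfaR against parental cells, turning only without Cal27 AfaR replicate 2. With a mean of at least 0.5 CPM, 4 genes were expressed in FaDu ErlR.

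Same-numbered libraries did not deviate together (correlations from -0.173 to 0.105), so the number was not taken to pair them. With the replicate number as a block, FaDu ErlR had 0 called genes (MAGEA3 4.10 on the log2 scale, adjusted p = 0.0746), the MAGEA4 interaction and the MAGEA4 difference between Cal27 AfaR and ErlR no longer passed, and all other counts of called genes were the same. With crossed numbers in Cal27 AfaR, tried after the data were seen, 0 of these genes and 3150 of all genes were called, and MAGEA4 passed the test.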

Other observations

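GABRQ, which encodes a GABA receptor subunit, starts 60.6 kb from MAGEA3 and was picked after its values were seen. It had 122 reads in FaDu AfaR against 2 in FaDu parental cells, a ratio of 54.1 with a counting interval from 14.7 to 452. In Cal27 it was 9.47 ± 3.01 CPM in AfaR and 4.02 ± 0.36 CPM in ErlR against 1.83 ± 0.45 CPM in parental cells. It passed the test in these 3 comparisons (adjusted p = 0.00155, 0.000653 and 0.0401) and not in FaDu ErlR (adjusted p = 0.288).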
